A study of Mus musculus with 18 samples.

Results

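Newly made RNA was compared between wild-type (WT) and *Tet2*-knockout (KO) mouse embryonic stem (mES) cells after 20 min of labelling with 5-ethynyl uridine (EU), a uridine analogue that cells build into RNA as they transcribe. The 20 min labelling time held 6 of the 18 libraries of the series, 3 labelled WT and 3 labelled *Tet2*-KO, chosen by their labelled time and genotype alone. Both groups were feeder-depleted cultures on gelatin in serum with LIF and inhibitors of GSK3 and MEK, received 1 mM EU, and differed in their labels only by genotype. EU-labelled RNA was depleted of ribosomal RNA and captured on streptavidin after biotin was clicked on. ERCC spike-in transcripts were put in only after capture, into the eluate, at a dose scaled to total RNA. The spike-in therefore did not pass through labelling or capture and does not correct for differences in either. Each genotype was 1 line, so that the genotype and other differences between the lines cannot be told apart. Replicates were labelled as separate samples, and p-values measure only the spread between them.

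TET2 is a dioxygenase that oxidises 5-methylcytosine in DNA and, together with RNA-binding partners, in RNA. Mouse ES cells held in LIF with GSK3 and MEK inhibitors stay in the naive pluripotent state, in which ERK signalling is low and Wnt signalling is high. A small fraction of such cells passes through a state that resembles the embryo at the 2-cell stage, marked by the *Zscan4* family. ES cells also hold many germline genes silent through DNA methylation and through an E2F6–MGA–MAX complex that binds E boxes, CACGTG.

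The 6 libraries held 18890266 to 21470988 gene reads and 89633 to 153195 ERCC reads each. Every gene was read on both available scales. Reads per ERCC read give a gene's level against a fixed amount of total RNA, and the share of gene reads, given as CPM (reads scaled to a common library size, here by the trimmed mean of M values, TMM), gives a gene's level against the other genes of its library. Of 54446 genes in the files, 19910 had enough reads to be tested, 15158 of them protein-coding. As a check of cell type, the pluripotency factors *Pou5f1* and *Nanog* were at 77.5 to 113 and 297 to 305 CPM in all 6 libraries, whereas *Sox2* had 0 reads in each. The cause was not tested. How reads of overlapping genes were counted is not given in the sources used here, so the 0 does not show that *Sox2* was silent.

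*Tet2* itself was at 667, 691 and 663 CPM in the 3 WT libraries and at 584, 587 and 597 CPM in the 3 libraries labelled *Tet2*-KO. The groups did not overlap, and the difference was a log2 fold change of −0.19 ± 0.02 (SE, edgeR, adjusted p = 1.8e-09), so most reads of the gene were still present. Per ERCC read *Tet2* was higher in *Tet2*-KO (log2 0.25 ± 0.08, edgeR, adjusted p = 0.0059). On that scale 4 (57.1%) of 7 TET enzymes and partners were higher and 0 lower, near the 53.7% and 4.86% of all genes. Counts over a whole gene also hold reads from outside a deleted part, and the deleted part is not given in the sources used here, so *Tet2* does not check the genotype labels and directions below are those of the labels. In share, *Tet1* was at log2 0.04 ± 0.02 (edgeR, adjusted p = 0.058), *Tdg*, the glycosylase that removes oxidised bases, fell by 0.45, and *Ogt*, a glycosyltransferase that binds TET proteins, rose by 0.24.

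Labelled RNA per ERCC read was higher in *Tet2*-KO libraries. Protein-coding reads per ERCC read were 134, 145 and 130 in WT and 179, 201 and 197 in *Tet2*-KO. The lowest *Tet2*-KO library stood above the highest WT library, and the means of 136 ± 8.05 and 192 ± 11.9 (SD, n = 3 each) differed 1.41-fold, or 0.50 on the log2 scale. A two-sided exact permutation test gave p = 0.10, the smallest that 3 libraries against 3 can give. Taken singly, all 21 spike-in transcripts that reached 100 reads in all 6 libraries put the level higher in *Tet2*-KO, by log2 0.23 to 0.76. These ratios share the protein-coding reads and the spike-in mix of the same 6 libraries. They are not replicates and add nothing to the test. As the spike-in was dosed by total RNA, this level is labelled RNA per total RNA and not per cell. In bulk libraries a change in labelled RNA per cell and a change in the number of labelled cells cannot be told apart. The same holds for a change in total RNA per cell and a difference in labelling or capture.

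**Figure D1:**
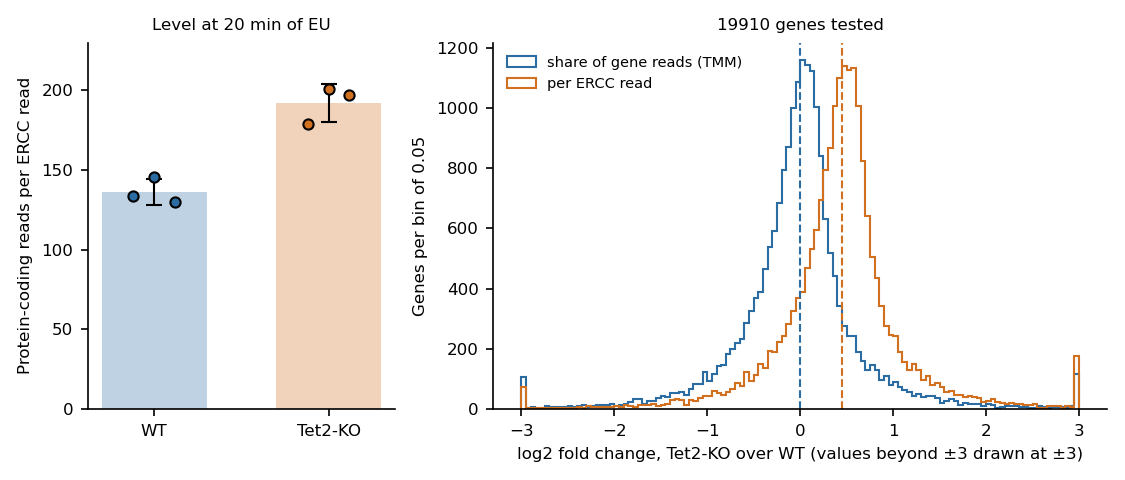
Left, protein-coding reads per ERCC read in each library of 20 min (points), with the mean (bar, from 0) and SD (whiskers); the 3 *Tet2*-KO libraries at 179 to 201 lie above the 3 WT libraries at 130 to 145. Right, distribution of log2 fold changes (*Tet2*-KO over WT) of the 19910 genes on each scale, with dashed medians at 0.45 per ERCC read and 0.00 by TMM.

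Gene by gene, the rise per ERCC read was broad and its median was 0.45 on the log2 scale. Per ERCC read, 10686 genes (53.7% of those tested) were higher and 967 (4.86%) were lower in *Tet2*-KO (edgeR, adjusted p under 0.05), of which 2026 (10.2%) and 448 (2.25%) changed at least 2-fold. As a share of gene reads the calls were near balance, with 4048 genes (20.3%) higher and 3628 (18.2%) lower, of which 804 (4.04%) and 909 (4.57%) changed at least 2-fold. Libraries of the 2 genotypes did not overlap in CPM for 5151 genes higher (25.9%) and 4737 lower (23.8%), and in reads per ERCC read for 11396 higher (57.2%) and 1279 lower (6.42%). All 4048 genes higher in share were also higher per ERCC read, and all 967 genes lower per ERCC read were also lower in share. Between them lay 573 genes that were higher per ERCC read yet lower in share, and 2088 that were lower in share with no call per ERCC read. Directions below are therefore given by share of gene reads unless the ERCC scale is named.

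By read level, calls were unequally divided. Among 3032 protein-coding genes in the highest quintile of CPM, 1454 rose and 660 fell in share, against 236 and 313 of 3032 in the lowest quintile. The median log2 fold change was 0.08 in the highest and −0.07 in the lowest quintile. By genomic span, the 3032 longest genes (over 80.2 kb) had 984 rises and 811 falls, and the 3033 shortest (up to 9.40 kb) had 375 and 418. Genes with more reads are more readily called in either direction. Summed CPM in WT replicate 1 was 341449 for the longest and 76348.7 for the shortest genes. How far read numbers set the counts of calls was not tested. The medians of the span quintiles lay between −0.01 and 0.02.

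The 15 lowest and 15 highest protein-coding genes by fold change in share, among those above 4 CPM on average that were called and did not overlap, covered several functions. The lowest was *Uty*, a Y-linked demethylase gene, and it was followed by the neural transcription factor *Sox11*, *Zscan4c*, the oestrogen-responsive *Greb1*, the hormone precursor *Trh* and the mitochondrial carrier *Slc25a48*. *Sox11* was at 17.9, 17.7 and 15.4 CPM in WT and at 2.43, 1.72 and 2.26 CPM in *Tet2*-KO (log2 −2.99 ± 0.14, edgeR, adjusted p = 3.1e-18). *Trh* was at 69.1, 69.6 and 60.6 CPM in WT and at 8.56, 10.1 and 9.05 CPM in *Tet2*-KO (log2 −2.84 ± 0.08). The most abundant of the 15 was *Zfp42*, the naive-state marker also known as Rex1, at 550, 554 and 549 CPM in WT and at 115, 123 and 117 CPM in *Tet2*-KO. Its share was 4.65-fold lower (log2 −2.22 ± 0.03, edgeR, adjusted p = 1.3e-33), and its level per ERCC read was 3.41-fold lower. The remaining genes of the 15, *Fcgr3*, *Egr1*, *5730507C01Rik*, *Iqch*, *Bdkrb2*, *Arhgdib*, *Dpys* and *Chit1*, fell by 2.31 to 2.75 on the log2 scale. All 15 were also lower per ERCC read.

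On the other side, *Prex2*, a guanine nucleotide exchange factor for Rac, was the most abundant of the 15 highest. It was at 36.6, 38.4 and 38.6 CPM in WT and at 357, 360 and 347 CPM in *Tet2*-KO, a 9.37-fold higher share (log2 3.23 ± 0.04, edgeR, adjusted p = 9.55e-34). *Ttll11*, a tubulin polyglutamylase, rose from 5.42, 6.50 and 7.34 CPM to 92.1, 90.6 and 91.6 CPM (log2 3.83 ± 0.08). *Kctd16*, an auxiliary subunit of GABA-B receptors, rose from 1.74, 1.46 and 2.25 CPM to 36.7, 35.0 and 36.4 CPM (log2 4.29 ± 0.13). The X-linked homeobox gene *Rhox5* rose from 20.3, 21.9 and 18.5 CPM to 110, 108 and 104 CPM (log2 2.41 ± 0.06), and *Fkbp6*, needed in meiosis, rose by 2.69. The others were *Gm10260*, *Wdr64*, *Tpte*, *Nckap5*, *Grb14*, *St6galnac4*, *Nlrp4a*, *Nav3*, *Dnah6* and *Nell2*, with log2 values from 2.36 to 4.34. *Gm10260* is a predicted gene whose reads could be shared with a like copy.

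**Figure D2:**
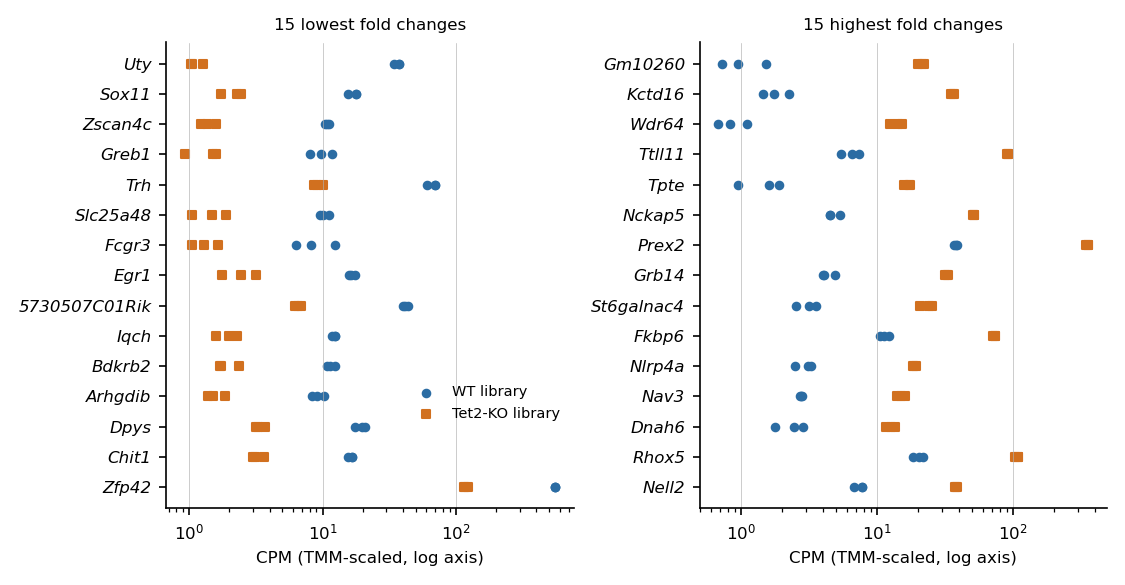
TMM-scaled CPM (log axis) of the 15 protein-coding genes with the lowest and the 15 with the highest fold changes in share that met the criteria above, each point a library (circles WT, squares *Tet2*-KO). No gene had overlapping groups, and the most abundant were *Zfp42* (549 to 554 CPM in WT) on the low side and *Prex2* (347 to 360 CPM in *Tet2*-KO) on the high side.

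Genes of the 2-cell-like state were lower in *Tet2*-KO. Of 17 tested members, 14 fell and 1 rose on both scales, with a median log2 fold change of −2.46 in share and −2.02 per ERCC read, against 0.00 and 0.45 over all genes. *Zscan4c* was at 11.1, 10.4 and 10.9 CPM in WT and at 1.22, 1.35 and 1.59 CPM in *Tet2*-KO (log2 −2.95 ± 0.18, edgeR, adjusted p = 1.5e-15), with no overlap. *Zscan4a*, *Zscan4b*, *Zscan4d*, *Zscan4e* and *Zscan4f* fell by 2.46 to 3.23, the deubiquitinase genes *Usp17la*, *Usp17lb*, *Usp17lc* and *Usp17le* by 2.09 to 2.47, and *Zfp352* by 3.42. The member that rose was *Tdpoz1*, from 1.49, 0.83 and 1.53 CPM to 8.29, 9.83 and 7.56 CPM (log2 2.72 ± 0.22). *Zscan4* and *Usp17l* genes are near-identical copies, so how reads fell among them is uncertain, and 7 members, *Duxf3* among them, had too few reads to be tested.

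Among pluripotency genes, *Zfp42* and 7 other naive markers fell while the core factors moved both ways. Of 14 naive markers, 8 fell and 2 rose, with a median of −0.28. *Tfcp2l1*, a LIF–STAT3 effector, was at 966, 992 and 1000 CPM in WT and at 704, 679 and 704 CPM in *Tet2*-KO (log2 −0.50 ± 0.02), *Klf4* fell by 0.50 and *Klf2* by 0.51, whereas the growth factor *Fgf4* rose by 0.48 and *Tbx3* by 0.27. *Esrrb*, an orphan nuclear receptor, was at 868 ± 6.94 and 842 ± 1.12 CPM (SD, n = 3 each; log2 −0.04, edgeR, adjusted p = 0.073). Of the 8 core factors, *Pou5f1* (log2 0.38 ± 0.05) and *Sall4* (0.42 ± 0.06) rose, *Tdgf1* (−0.68 ± 0.03), *Lin28a* and *Dppa4* fell, and *Nanog* was at log2 0.01 ± 0.03 (edgeR, adjusted p = 0.85). Per ERCC read, 7 (50%) of the 14 naive markers were higher and 2 (14.3%), *Zfp42* and *Gbx2*, were lower, against 53.7% and 4.86% of all genes. The median of the naive markers on that scale was 0.18, against 0.45 over all genes. Of 9 formative and primed markers, 2 (22.2%) rose and 2 (22.2%) fell, near the 20.3% and 18.2% of all genes. *Otx2*, a regulator of the exit from the naive state, rose from 1.29, 1.66 and 1.26 CPM to 5.44, 5.41 and 6.43 CPM (log2 2.04 ± 0.20), while *Fgf5* was at 0.43 ± 0.12 and 0.24 ± 0.25 CPM and was not called.

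Immediate early genes, which serum and growth factors switch on within minutes through SRF and ERK, were lower in *Tet2*-KO. In share, 15 of 22 fell and 1 rose, with a median of −0.74, and per ERCC read 9 fell and 4 rose. *Egr1* was at 15.8, 17.6 and 16.4 CPM in WT and at 2.43, 1.77 and 3.19 CPM in *Tet2*-KO (log2 −2.75 ± 0.15, edgeR, adjusted p = 6.8e-17). *Jun* was at 23.7, 24.9 and 25.1 CPM in WT and at 10.1, 9.62 and 10.4 CPM in *Tet2*-KO (log2 −1.29 ± 0.12), and *Junb* fell by 1.29, *Fos* by 0.74 and *Ier2* by 0.75. Without *Tet2*-KO replicate 1, 5 members were lower per ERCC read. The exception was *Klf10*, which rose by 0.25, and *Mcl1* was at 115 ± 2.53 and 117 ± 3.01 CPM (log2 0.03, not called).

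The canonical motif for SRF, the CArG box, was found in the 250 bases before the start of 3 of the 17 (of 22) immediate early genes with a promoter sequence, *Egr2*, *Srf* and *Zfp36*, against 1.42% of all tested genes with one. *Egr2* and *Srf* fell in share and *Zfp36* was not called (log2 −0.51, edgeR, adjusted p = 0.14). Of the 14 immediate early genes without the motif in that window 10 fell, with a median of −0.76. All 5 exact CArG matches in the searched promoters of this list are shown. SRF binding was not tested, and members without a promoter sequence, other positions and other forms of the motif were not searched. A gene not shown may therefore still have an SRF site. The 5 sites are from RefSeq on GRCm38.p6, 5′ to 3′ on the gene's strand, with the CArG box in capitals. They lie at chr10:67537484-67537513 and chr10:67537787-67537816 (*Egr2*, +, before each of 2 annotated starts), chr17:46556225-46556254 and chr17:46556205-46556234 (*Srf*, −) and chr7:28379267-28379296 (*Zfp36*, −).
Egr2: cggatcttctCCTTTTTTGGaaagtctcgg
Egr2: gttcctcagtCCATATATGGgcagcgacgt
Srf: ctggggctcgCCATATAAGGagcggcctcg
Srf: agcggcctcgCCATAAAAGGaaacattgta
Zfp36: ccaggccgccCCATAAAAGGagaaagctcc

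Feedback inhibitors and targets of ERK lay below all genes by median on both scales. Of 14, 9 (64.3%) fell and 2 (14.3%) rose in share, with a median of −0.17 against 0.00 over all genes. Per ERCC read 6 (42.9%) were higher and 3 (21.4%) lower, against 53.7% and 4.86% of all genes. The median on that scale was 0.28, against 0.45 over all genes. *Spry4*, an inhibitor of receptor tyrosine kinase signalling, was at 43.9, 46.1 and 43.9 CPM in WT and at 16.1, 17.5 and 16.9 CPM in *Tet2*-KO (log2 −1.41 ± 0.08, edgeR, adjusted p = 1.7e-16), and *Spry2* fell by 1.10 and the phosphatase *Dusp5* by 0.91. *Dusp6*, another ERK phosphatase, rose by 0.49 and *Errfi1*, an inhibitor of EGF receptors, by 1.04, with 1 rise left in the list without replicate 3 of either genotype. Among 11 Wnt targets, 6 fell and 1 rose in share, and 4 were lower and 2 higher per ERCC read. *Cdx1* (log2 −1.99 ± 0.13), *Lef1* (−0.98 ± 0.15) and the feedback inhibitor *Axin2*, at 68.9, 64.6 and 69.8 CPM in WT and at 34.1, 42.0 and 37.6 CPM in *Tet2*-KO (−0.84 ± 0.07), were among them, and *Znrf3* rose by 0.11. Of 12 Nodal and BMP genes, 4 fell, with the Nodal antagonists *Lefty1* (−0.84 ± 0.15) and *Lefty2* (−0.78 ± 0.05) among them, and 2 rose, *Smad7* (0.78 ± 0.03) and *Ski*, against 3 lower and 4 higher per ERCC read. *Stat3* fell by 0.37 and its target *Socs3* by 0.34, and of 9 LIF–STAT3 genes 4 fell and 0 rose in share, with 2 falls left without *Tet2*-KO replicate 1. Per ERCC read the LIF–STAT3 list had 6 (66.7%) higher and 1 (11.1%) lower, with a median of 0.37 against 0.45 over all genes.

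Germline genes went the other way. Of 15 tested, 9 rose and 2 fell in share, with a median of 0.74, and 10 were higher and 0 lower per ERCC read. *Stk31* was at 18.9, 17.7 and 16.4 CPM in WT and at 67.8, 63.8 and 66.2 CPM in *Tet2*-KO (log2 1.90 ± 0.07, edgeR, adjusted p = 3.7e-22). *Mov10l1*, a helicase of the piRNA pathway, rose from 2.29, 2.65 and 2.39 CPM to 11.4, 10.2 and 10.5 CPM (log2 2.13 ± 0.15), and *Hormad1*, a protein of meiotic chromosome axes, from 31.2, 29.2 and 31.4 CPM to 66.7, 71.3 and 70.1 CPM (log2 1.18 ± 0.06). *Sycp1*, *Dazl*, *Mael*, *Taf7l*, *Asz1* and *Tex19.1* also rose (*Mael* not without WT replicate 1, 2 or 3 or *Tet2*-KO replicate 1, and *Taf7l* not without WT replicate 2 or 3 or *Tet2*-KO replicate 1), and *Sycp3* (log2 −0.62) and *Ddx4* (−0.43) fell. Of genes that encode repressors of germline genes, *Mga* rose by 0.13 and *L3mbtl2* by 0.27, *Pcgf6* was at 0.07 (edgeR, adjusted p = 0.49), and the DNA methylation genes *Dnmt3b* and *Dnmt3l* moved by 0.68 and −0.74.

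An E box, CACGTG, which reads the same on both strands, lay in the 250 bases before the start of 9 of the 15 germline genes (60.0%), against 9.07% of the 13340 tested genes with a RefSeq promoter sequence. Of the 9 germline genes with the motif 6 rose and 2 fell, and of the 6 without it 3 rose and 0 fell. Among all 1210 tested genes with an E box 24.3% rose, and among those without it 21.15%. The motif and 10 bases on either side are shown for the 6 that rose and then for the 2 that fell, with the E box in capitals, from GRCm38.p6 on the gene's strand. They lie at chr15:88982744-88982763 (*Mov10l1*, +), chr6:49395474-49395499 (*Stk31*, +), chr3:95559610-95559635 (*Hormad1*, +, the farther of 2 sites), chr3:102936179-102936204 (*Sycp1*, −), chrX:134476524-134476549 (*Taf7l*, −), chr1:166238952-166238977 (*Mael*, −), chr10:88459513-88459538 (*Sycp3*, +, the farther of 2 sites) and chr13:112652324-112652349 (*Ddx4*, −). The *Mov10l1* site lies at the edge of the window and has fewer flanking bases.
Mov10l1: ccttCACGTGctaaccgcca
Stk31: gccggccaccCACGTGaccagggctg
Hormad1: aagggtgcgcCACGTGccagtgacag
Sycp1: gagaacccggCACGTGggaagggaaa
Taf7l: cctcttatacCACGTGacagaactcg
Mael: ccaggcctacCACGTGacaatccccg
Sycp3: cgttggctccCACGTGagaacgggca
Ddx4: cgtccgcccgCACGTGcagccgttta

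Imprinted genes, expressed from 1 parental allele, split between loci. Of 22, 10 rose and 7 fell. The antisense RNA *Airn* rose from 26.2, 26.1 and 27.7 CPM to 88.0, 83.9 and 90.9 CPM (log2 1.71 ± 0.05, edgeR, adjusted p = 2.0e-23), and its neighbour *Igf2r* by 0.16, a call lost without WT replicate 1 or 2 or *Tet2*-KO replicate 2 or 3. *Kcnq1ot1* rose by 0.61, *Mest* by 1.36, *Peg10* by 0.79, *Plagl1* by 0.74 and *Peg3* by 0.70. The non-coding RNAs of the *Dlk1*–*Dio3* domain fell together, *Meg3* by 0.58, *Rian* by 0.52 and *Mirg* by 0.68, and *Rtl1* from the same domain fell by 0.37. Counting could split reads between *Airn* and *Igf2r*, which overlap on opposite strands, since the strand setting is not given in the sources used here.

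The 4 listed Y-linked genes were far lower in *Tet2*-KO libraries. Of all 11 tested genes of the Y chromosome, 8 fell and 1 rose in share. *Uty* had 756, 659 and 825 reads in WT and 24, 20 and 20 in *Tet2*-KO (log2 −5.02 ± 0.13, edgeR, adjusted p = 6.6e-26). *Ddx3y* fell by 5.19, *Eif2s3y* by 4.32 and *Kdm5d* by 2.45. Of 4 X-inactivation genes, *Tsix* fell by 1.14, *Ftx* by 1.06 and *Xist* by 0.76, with *Xist* at 2.54, 3.43 and 2.79 CPM in WT and at 2.11, 1.40 and 1.65 CPM in *Tet2*-KO. *Xist* and *Tsix* overlap on opposite strands, with the same limit, and *Xist* was not called without WT replicate 2 or *Tet2*-KO replicate 2 or 3.

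**Figure D3:**
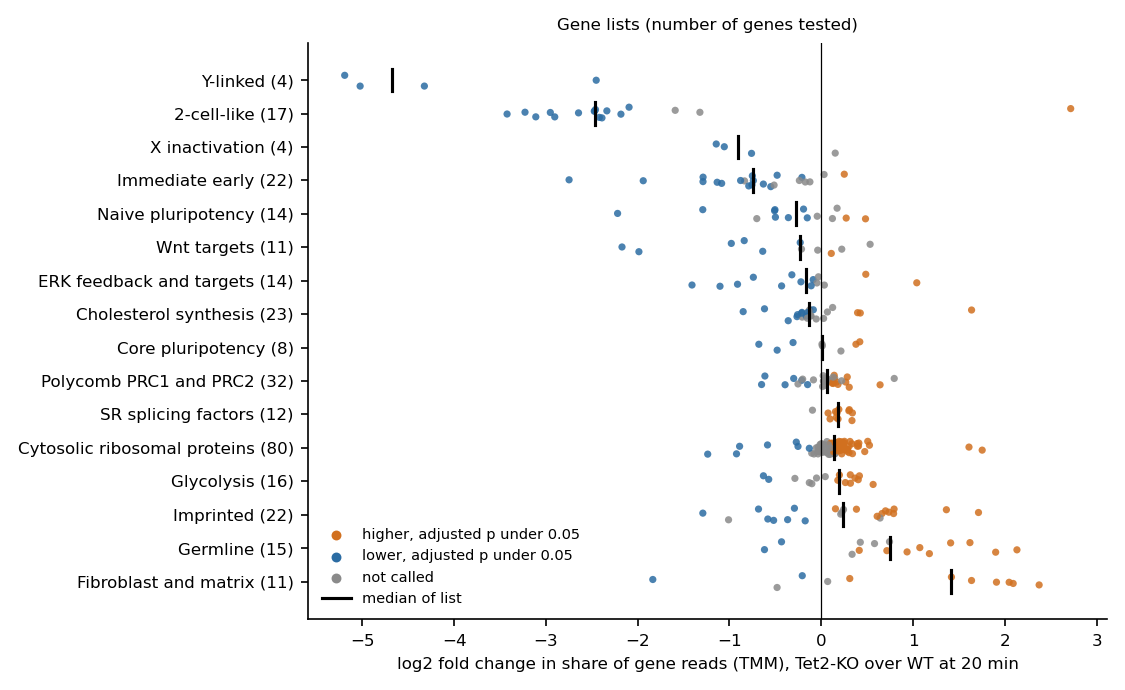
Log2 fold change in share of gene reads (TMM) of each tested gene of 16 lists, with the number tested in brackets, coloured by call, and the list's median as a black line. Y-linked (median −4.67) and 2-cell-like (−2.46) lists lie far to the left, and the germline (0.74) and fibroblast and matrix (1.42) lists to the right.

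Chromatin regulators moved both ways. Of 32 tested members of the Polycomb complexes, which silence developmental genes, 10 (31.2%) rose and 6 (18.8%) fell in share, against 20.3% and 18.2% of all genes, with values from −0.65 to 0.80 and a median of 0.06. Per ERCC read 26 of the 32 were higher and 0 lower, against 53.7% and 4.86% of all genes. *Ezh2*, the catalytic subunit of PRC2, was at 384, 381 and 388 CPM in WT and at 341, 346 and 354 CPM in *Tet2*-KO (log2 −0.15 ± 0.02), *Cbx7* fell by 0.39 and *Aebp2* rose by 0.64. Of 10 genes of the PR-DUB deubiquitinase complex and its partners, *Asxl3* fell by 0.93, *Asxl1* rose by 0.13, and *Mbd6* and *Mbd5*, which belong to that complex, were both at log2 0.04 and not called. Among DNA methylation genes, *Dnmt3b* rose from 40.1, 39.2 and 42.2 CPM to 63.3, 66.9 and 65.2 CPM (log2 0.68 ± 0.06, edgeR, adjusted p = 4.0e-11) and *Dnmt3l*, the cofactor of the de novo enzymes, fell by 0.74. Of 16 silencers of retrotransposons 7 (43.8%) rose and 2 (12.5%) fell in share, and all 16 were higher per ERCC read. *Trim28* and *Cbx5* both rose by 0.28 in share, and 1 fall was left without WT replicate 1 or *Tet2*-KO replicate 2. Of 11 RNA m5C writers and readers 2 (18.2%) rose and 3 (27.3%) fell in share, against 20.3% and 18.2% of all genes. Per ERCC read 9 (81.8%) of them were higher and 0 lower, against 53.7% and 4.86% of all genes. *Nsun2*, the main methyltransferase of the set, rose by 0.11 in share.

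Lists of growth, metabolism and RNA processing differed in direction. Of 80 cytosolic ribosomal protein genes 46 (57.5%) rose and 7 (8.75%) fell in share, against 20.3% and 18.2% of all genes, with a median of 0.14, whereas of 74 mitochondrial ribosomal protein genes 7 rose and 9 fell, with a median of 0.01. Of 12 SR splicing factors 11 rose and 0 fell, with a median of 0.18, and of 10 tested host genes of snoRNAs 3 rose and 1 fell. *Tra2a* was at 373, 380 and 368 CPM in WT and at 472, 473 and 473 CPM in *Tet2*-KO (log2 0.34 ± 0.02, edgeR, adjusted p = 9.1e-14). Of 16 glycolysis genes 9 rose and 2 fell, with *Aldoa* the highest at 0.57 and the glucose transporter *Slc2a3* the lowest at −0.63. Of 23 cholesterol synthesis genes 10 fell and 3 rose in share, with a median of −0.13. Per ERCC read 14 (60.9%) were higher and 1 (4.35%) lower, near the 53.7% and 4.86% of all genes. Their median on that scale was 0.33, against 0.45 over all genes. The integrated stress response list had 5 rises and 0 falls among 16, with *Psat1* at 0.52 and *Atf5* at 0.51, and 2 or 3 rises without WT replicate 1 or 2 or *Tet2*-KO replicate 2 or 3. Of 13 RNA polymerase II subunits 3 (23.1%) rose and 0 fell in share, against 20.3% and 18.2% of all genes, and all 13 were higher per ERCC read, against 53.7%. Mitochondrially encoded genes, which the mitochondrial polymerase transcribes, had 0 rises and 6 (26.1%) falls among 23 in share, against 20.3% and 18.2% of all genes. Per ERCC read they had 13 (56.5%) rises and 0 falls, and the rises were near the 53.7% of all genes. Reads of the mitochondrial chromosome took 1.99 to 2.06% of gene reads in WT and 1.78 to 1.81% in *Tet2*-KO.

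Non-coding classes also divided. Of 1612 tested lincRNA genes 234 (14.5%) rose and 272 (16.9%) fell in share, against 20.3% and 18.2% of all genes. Per ERCC read 508 (31.5%) were higher and 122 (7.57%) lower, against 53.7% and 4.86% of all genes. Of 1182 antisense genes 113 (9.56%) rose and 161 (13.6%) fell in share, and 310 (26.2%) were higher and 76 (6.43%) lower per ERCC read. Of 681 processed pseudogenes 102 (15.0%) rose and 59 (8.66%) fell in share, and 209 (30.7%) were higher and 39 (5.73%) lower per ERCC read. LincRNA genes together took 4.79, 4.94 and 4.46% of gene reads in WT and 3.99, 4.06 and 3.97% in *Tet2*-KO, with no overlap. Such a sum is weighted to the most abundant genes and does not show a fall of the whole class. Of the 1612 lincRNA genes 1106 were not called in share, and their median log2 fold change was −0.07. The largest falls in share of reads were of *Gm26917* and *Malat1*. *Gm26917* went from 1.95 to 1.59% on average (not called without WT replicate 2 or with DESeq2). *Malat1*, the nuclear speckle RNA, went from 1.47 to 1.11% (log2 −0.36 ± 0.01, edgeR, adjusted p = 1.9e-21). *Neat1*, the scaffold RNA of paraspeckles, was at 571, 565 and 571 CPM in WT and at 299, 305 and 277 CPM in *Tet2*-KO (log2 −0.95 ± 0.03) and was lower per ERCC read too (log2 −0.51), whereas *Malat1* per ERCC read was at 0.09 (edgeR, adjusted p = 0.36). The paraspeckle protein gene *Pspc1* was at log2 0.02 and *Sfpq* rose by 0.32. The largest rise in share of reads was of *Ncl*, nucleolin, from 0.92 to 1.01%.

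Some non-coding genes were far lower in libraries of 1 genotype, and *Gm10499* and *Gm30228* were near absent there. The lincRNA *2410018L13Rik* was at 133, 128 and 126 CPM in WT and at 5.55, 7.75 and 7.30 CPM in *Tet2*-KO (log2 −4.23 ± 0.07), and *Gm10499*, a pseudogene, at 30.1, 28.5 and 29.7 CPM and at 0.37, 0.10 and 0.21 CPM. In the other direction the lincRNA *Gm30228* was at 0.30, 0.31 and 0.32 CPM in WT and at 48.6, 51.0 and 55.2 CPM in *Tet2*-KO (log2 7.36 ± 0.16, edgeR, adjusted p = 7.8e-28), and the processed pseudogene *Gm15459* at 5.72, 6.03 and 4.37 CPM and at 318, 276 and 300 CPM. Pseudogenes may take or lose reads of near-identical copies.

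Lower genes were not spread evenly along the chromosomes. Over 242 windows of 10 Mb with at least 15 protein-coding genes, the window median of log2 fold change in share stayed between −0.15 and 0.24 in all but 13, which formed 6 stretches. This description was made after the values were seen, and it is given without a test. On chromosome 6 from 80 to 140 Mb, 282 of 520 tested genes (54.2%) fell and 17 rose, with a median of −0.44 in share and 0.01 per ERCC read. Genes of that stretch took 3.04, 3.04 and 3.04% of gene reads in WT and 2.22, 2.23 and 2.23% in *Tet2*-KO. The neighbouring 10 Mb up to 150 Mb had a median of 0.32. On chromosome 13 from 90 to 120 Mb, 94 of 208 fell (median −0.37), and single windows on chromosomes 12 and 1 had medians over all tested genes of −0.41 and −0.30, while the first 10 Mb of chromosome 14 had a median of 0.80 over 41 genes. The 4 lower stretches held 4.52% of tested genes and 12.2% of those that fell.

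Genes in the lower stretches include *Sox11*, *Trh*, *Fcgr3* and *Arhgdib* of the 15 lowest, *Gm10260* and *Wdr64* of the 15 highest, *Slc2a3* and *Hk2*, the 2 glycolysis genes that fell, the trophectoderm genes *Gata2* and *Tead4*, and *Il6st*, *Ddx4* and the Polycomb genes *Phc1* and *Pcgf1*. Of 9 mitochondrial ribosomal protein genes that fell, 6 lie there. Outside all 6 stretches, 3924 of 18894 genes rose and 3177 fell in share. The 2-cell-like list had 14 falls of 16 there, the immediate early list 15 of 22, the naive list 8 of 13, and the germline list 9 rises of 13. What differs between the lines in these stretches was not tested.

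**Figure D4:**
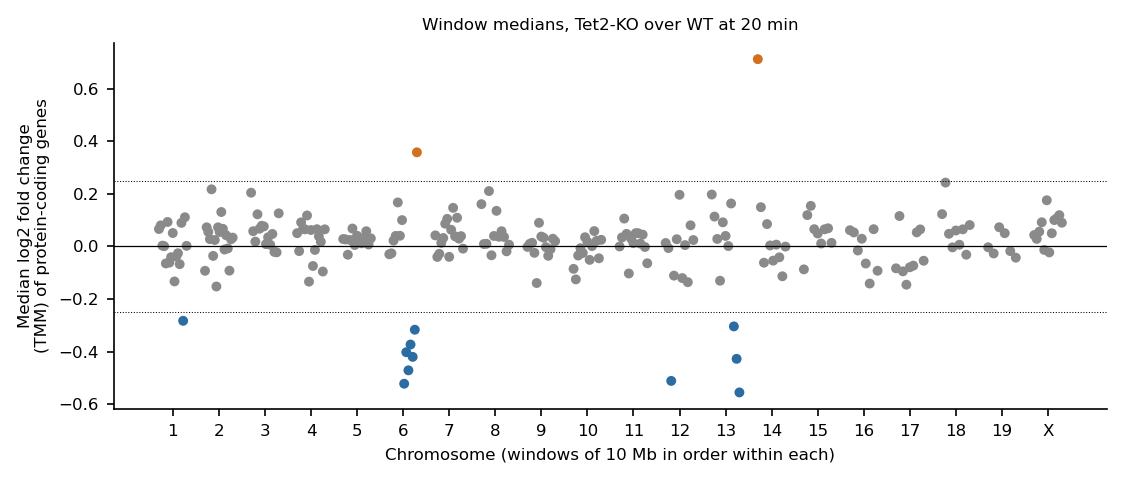
Median log2 fold change in share (TMM) of protein-coding genes in each window of 10 Mb, ordered within each chromosome; dotted lines mark −0.25 and 0.25. Of the 11 windows at or below −0.25, 6 adjoin on chromosome 6, 3 adjoin on chromosome 13, and the others are single windows on chromosomes 12 and 1.

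At 20 min the genotype difference in share was then set against the mean of the differences at 10 and 40 min, whose libraries are separate. The contrast differed for few genes, 351 higher at 20 min (1.76%) and 458 lower (2.3%) of 19910 (edgeR, adjusted p under 0.05), and for 3 of the 30 genes with the lowest and highest fold changes. Per ERCC read the same contrast was higher for 46 genes (0.231%) and lower for 7432 (37.3%). Those 3 were *Egr1*, *Ttll11* and *Prex2*. *Egr1* was at 53.5 to 61.7 CPM in WT after 10 min, at 15.8 to 17.6 after 20 min and at 7.15 to 8.77 after 40 min, and between 0.925 and 3.19 CPM in all 9 *Tet2*-KO libraries. *Zfp42* was at 104 to 127 CPM in *Tet2*-KO and at 499 to 554 CPM in WT over the 3 labelling times, and its contrast was −0.01 ± 0.04.

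Among protein-coding genes above 4 CPM on average whose contrast was called, the 5 highest at 20 min were *Acta2*, smooth muscle actin, the collagens *Col1a1* and *Col12a1*, tenascin *Tnc*, and *Inhba*, an activin subunit. *Col1a1* was at 1.84, 1.66 and 1.67 CPM in WT and at 6.87, 8.94 and 6.27 CPM in *Tet2*-KO at 20 min (log2 2.09 ± 0.20, edgeR, adjusted p = 9.3e-11). At the other times it was at 6.03 to 7.87 CPM in WT and 2.58 to 3.86 CPM in *Tet2*-KO after 10 min, and at 2.41 to 2.75 and 2.87 to 3.70 CPM after 40 min. Of 11 tested genes of fibroblasts and matrix, the lineage of feeder cells, 7 rose and 2 fell at 20 min, with a median of 1.42. Summed over all 17 listed markers, of which *Fn1* alone was at 1011 CPM in WT and 876 CPM in *Tet2*-KO on average, the list was at 1034 to 1088 CPM in WT and lower, at 932 to 962 CPM, in *Tet2*-KO. Summed without the abundant *Fn1* and *Vim*, the other 15 were at 14.5 to 17.6 CPM in WT and at 27.2 to 28.7 CPM in *Tet2*-KO at 20 min, at 43.8 to 47.5 CPM in WT at 10 min, and at 13.2 to 18.1 CPM in the other 3 groups. *Pdgfrb* fell by 1.83, and 6 further markers, among them the fibroblast genes *Thy1*, *Dcn* and *Lum*, were not tested and had at most 9 reads in any library of 20 min. Whether other cells in the dishes contribute to these values was not tested.

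Other marker lists of differentiated cells were low or mixed. Of 12 primitive endoderm markers 4 rose and 4 fell, with *Hnf4a* (log2 −1.06 ± 0.14) and *Gata4* lower, *Sparc* (0.58 ± 0.05) and *Col4a2* higher, and *Gata6* at 1.08 ± 0.16 and 1.28 ± 0.10 CPM. Of 10 trophectoderm markers, *Gata3* rose from 4.25 ± 0.54 to 11.4 ± 1.75 CPM (log2 1.43 ± 0.16, edgeR, adjusted p = 4.9e-09), and *Eomes*, *Tead4* and *Gata2* fell. *Tead4* and *Gata2* lie in the lower chromosome stretches, and outside all 6 stretches 1 of 8 tested trophectoderm markers fell and 1 rose. Early mesoderm markers summed to 1.74 to 2.65 CPM in all 6 libraries, and of 3 tested neural markers *Nes* and *Map2* fell by 0.53 and 0.54.

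**Figure D5:**
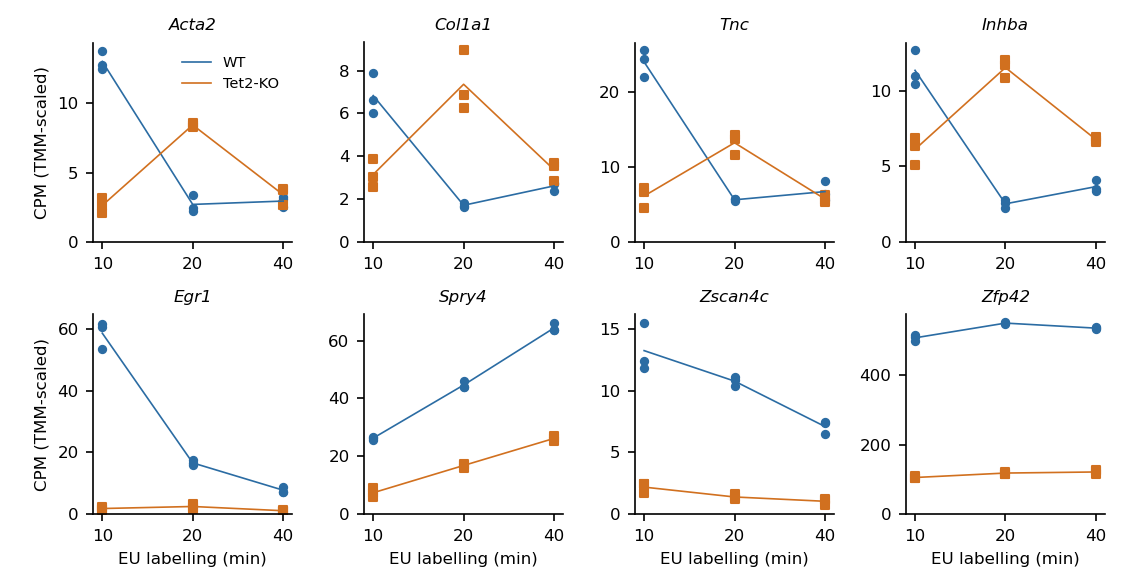
TMM-scaled CPM of 8 genes in all 18 libraries by EU labelling time, each point a library and lines through the means (circles WT, squares *Tet2*-KO). *Acta2*, *Col1a1*, *Tnc* and *Inhba* were lower in *Tet2*-KO than in WT at 10 min and higher in *Tet2*-KO than in WT at 20 min, *Col1a1* and *Inhba* also at 40 min; *Egr1*, *Spry4*, *Zscan4c* and *Zfp42* were lower in *Tet2*-KO at each time.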

How the data were processed

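Counts of reads per gene were deposited for 18 EU-labelled libraries of mES cells, and the 6 of 20 min are described here. Per the labels and the study's methods, the authors trimmed reads with Trimmomatic 0.39, aligned them with HISAT2 2.2.1 to mm10 with ERCC sequences, and made the deposited counts with HTSeq 0.12.4 on GENCODE M19; the strand setting and overlap mode are not given in the sources used here. GENCODE M21 gave gene names and classes. Lines that name no gene, 23.2 to 24.9% of each library of 20 min, were left out.

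Genes were kept by edgeR's filterByExpr (minimum count 10). edgeR 4.0.16 quasi-likelihood models (R 4.3.3) were fitted to all 18 libraries in 6 groups, with 12 residual degrees of freedom, on ERCC totals or on TMM-scaled library sizes, and adjusted p-values are Benjamini-Hochberg values over 19910 genes. The fits were tested on simulated data. Genes were named by rule: *Tet2*; the 15 highest and 15 lowest called protein-coding genes with mean log2 CPM above 2 and no overlap; leading, extreme and example members of each list; the 2 extremes per direction of other classes; the 5 extremes per direction of the contrast with 10 and 40 min; and the 5 largest rises and falls in share of reads. Members and lists were chosen with earlier results of these data known. Same-numbered replicates did not deviate together (correlations of −0.01, 0.04 and 0.01), so replicate numbers were not taken to pair libraries. Alternatives included DESeq2 1.42.0, other scalings and filters, and leaving out each library.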

Additional observations from a re-analysis of the deposited data

Results flagged for a closer look

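The *Tet2*-KO minus WT difference in share of gene reads at 20 min differed from that at 10 and 40 min for 351 genes that were higher and 458 that were lower (edgeR interaction test). Of the 351, 222 were also called higher at 20 min alone, 51 were called lower and 78 were not called. Of the 458, 182 were called lower at 20 min, 183 higher and 93 not called.

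Among called protein-coding genes above 4 CPM on average, the contrast was log2 2.69 for *Acta2*, 2.47 for *Col1a1*, 2.32 for *Tnc*, 2.24 for *Col12a1* and 2.18 for *Inhba*. WT libraries of these 5 genes were higher at 10 min than at 20 min, and *Tet2*-KO libraries were higher at 20 min than at 10 min. At the other end the contrast was −1.06 for *Fam227a*, −0.84 for *Fgf18*, −0.63 for *Slc8a2*, −0.63 for *Gm49496* and −0.59 for *Ttll11*. The calls of *Gm49496* were lost without WT replicate 1 or 3 or *Tet2*-KO replicate 1 or 2 (−0.51 to −0.67), and those of *Slc8a2* without WT replicate 3 or *Tet2*-KO replicate 1 or 3 (−0.52 to −0.61). *Gm49496* was also not called against 10 min alone (−0.65) or 40 min alone (−0.60), nor *Slc8a2* against 10 min alone (−0.62) or with no filter (−0.64), nor *Ttll11* against 40 min alone (−0.43, edgeR, adjusted p = 0.054).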

How the results depend on the processing

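The total per ERCC read kept its direction under all 12 alternatives, including a replicate block (log2 0.45 to 0.55 over all of them). With a replicate block, 4043 genes were higher and 3628 lower in share, 10606 and 950 per ERCC read, and 352 and 457 in the contrast with 10 and 40 min, and no count over all genes moved by over 1.5 times. Leaving out each library in turn gave 3567 to 3764 higher and 3144 to 3274 lower in share, 9510 to 10661 and 787 to 892 per ERCC read, and 239 to 281 and 337 to 389 in the contrast. With at least 10 reads required in every library of 20 min, which tests fewer genes, the genes changed at least 2-fold were 1310 higher and 184 lower per ERCC read, and 413 and 534 in share. The contrast gave 689 higher genes against 40 min alone. Per ERCC read it gave 46 higher and 7432 lower, on a scale where whole libraries differed least between genotypes at 20 min. Why that difference varied with labelling time was not tested. Leaving out the 6 chromosome stretches, an alternative chosen after seeing the data, left 3924 higher and 3177 lower in share. Single-gene values near 0 changed sign. In share, *Nanog* was at −0.0079 with the 6 libraries alone, −0.012 with no filter and −0.00699 with the minimum of 10 reads, and *Pspc1* at −0.00019 with the 6 libraries alone, −0.0046 with no filter and −0.0073 to 0.038 leaving out single libraries. Against 10 min alone the contrast was 0.097 for *Prex2* and 0.050 for *Zfp42*, and for *Zfp42* it ranged from −0.038 to 0.0067 leaving out single libraries. Calls in share for *Fos*, *Dusp6*, *Dppa4*, *Gata2*, *Gata4*, *Socs3*, *Srf* and *Atf5* were each lost without at least 1 single library, as were those named in the report. *Esrrb*, not called here, was called lower with RLE size factors, DESeq2, the 6 libraries alone and other filters (−0.051 to −0.064). The contrast of *Egr1* was 0.072 and not called against 40 min alone. Low read numbers limit the lists of nearly silent genes.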
